A study of Mus musculus with 2 samples.

Results

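The transcripts of 6 transcription factor genes that mark podocytes, Wt1, Tcf21, Lmx1b, Foxc1, Foxc2 and Foxd1, were followed across the cell types of the mouse glomerulus. They were taken by symbol from the 31058 entries of the deposited feature lists, and all 6 were present. Glomerular cells of 2 healthy C57Bl/6 mice were profiled as 10x 3' single-cell libraries, 1 titled female and 1 titled male. The genotype of both mice was Pax2.rtTA;TetO.Cre;R26.Confetti, in which doxycycline switches on Cre in cells that express Pax2 and a Confetti reporter is then kept. Induction was at 19 days of age and tissue was taken at 30 days. With 1 library per title there was no replicate, so no test was made and no difference between the libraries can be set against the spread between animals.

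The libraries held 5233 and 4974 barcodes with 67648465 and 57841860 UMIs (unique molecular identifiers, which tag the transcripts captured), and 4909 and 4442 cells were kept, with medians of 10672 and 9616 UMIs. The sex-linked genes went against the titles: in the kept cells Xist stood at 0.682 CPM in the library labelled female against 1593 CPM in that labelled male, and 4 Y-linked genes summed to 214 and 0.0206 CPM. The libraries are therefore named by their titles throughout, in the order labelled female, labelled male. The kept cells of the libraries shared 7 barcodes. A level is given as CPM, the UMIs of a gene per 1000000 UMIs of all cells of a class in 1 library. Square brackets hold 95% intervals that cover counting error only. UMIs from 3' libraries are not scaled by transcript length, so levels are compared for 1 gene across cells and not between genes.

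Podocytes are the epithelial cells whose foot processes and slit diaphragms cover the glomerular capillaries. Wt1 encodes a zinc finger protein needed for podocyte formation and upkeep, Tcf21 a basic helix-loop-helix factor of podocyte precursors and kidney stroma, and Lmx1b a LIM homeodomain factor whose human gene is mutated in nail-patella syndrome. Foxc1, Foxc2 and Foxd1 encode forkhead proteins, of which Foxc1 and Foxc2 are close relatives and Foxd1 is known for marking the stromal progenitors that give rise to mesangial cells. Parietal epithelial cells line Bowman's capsule and share a developmental origin with podocytes, while mesangial cells hold the capillary tuft together.

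In the GENCODE annotation of mm10 (GRCm38), Wt1 lies on chromosome 2 at 105126529-105173616 (plus strand) and has up to 10 exons, and Lmx1b lies on the same chromosome at 33560965-33640511 (minus strand) with up to 8. Tcf21 is on chromosome 10 at 22817281-22820174 (minus strand) with up to 2 exons. The 3 forkhead members each have 1 exon, Foxc1 on chromosome 13 at 31806633-31812476, Foxd1 on chromosome 13 at 98354242-98359305 and Foxc2 on chromosome 8 at 121116171-121118895, all on the plus strand. Promoters of 4 members matched by symbol in the RefSeq table (GRCm38.p6), which had no entry for Wt1 and Foxc2. The 250 bases before the RefSeq start of 3 of them are shown: Tcf21 and Lmx1b, whose levels across cell types were the most alike of any pair of members, and Foxc1, whose levels were the least like theirs. RefSeq and GENCODE place the starts differently, so the Tcf21 window reaches 31 bases and the Foxc1 window 13 bases into the gene models given above, and the Lmx1b window ends 587 bases before its model.
Tcf21 promoter, chr10:22820144-22820393, minus strand: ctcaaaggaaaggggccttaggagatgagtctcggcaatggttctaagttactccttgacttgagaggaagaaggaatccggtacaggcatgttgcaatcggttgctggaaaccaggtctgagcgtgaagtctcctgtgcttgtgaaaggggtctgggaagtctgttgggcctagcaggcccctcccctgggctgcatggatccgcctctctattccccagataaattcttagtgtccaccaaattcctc
Lmx1b promoter, chr2:33641099-33641348, minus strand: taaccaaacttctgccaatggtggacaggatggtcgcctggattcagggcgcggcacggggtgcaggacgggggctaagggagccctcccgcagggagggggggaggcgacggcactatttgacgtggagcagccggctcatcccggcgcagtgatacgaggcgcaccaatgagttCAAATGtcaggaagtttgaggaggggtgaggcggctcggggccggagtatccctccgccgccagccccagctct
Foxc1 promoter, chr13:31806396-31806645, plus strand: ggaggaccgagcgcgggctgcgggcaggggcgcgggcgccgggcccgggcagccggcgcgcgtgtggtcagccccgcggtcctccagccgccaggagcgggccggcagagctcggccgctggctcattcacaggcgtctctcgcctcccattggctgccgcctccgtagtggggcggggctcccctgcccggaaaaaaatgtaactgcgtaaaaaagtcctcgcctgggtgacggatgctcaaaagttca
Capitals mark matches to the E-box CANNTG, the letters bound by basic helix-loop-helix proteins, of which Lmx1b has 1 and the Foxd1 promoter, not shown, also has 1, while 66.2% of all 32851 promoters of this length hold at least 1. The forkhead core TGTTTAC (in 3.17% of all promoters), the zinc finger site GCGGGGGCG (2.57%), the homeodomain core TAATTA (4.84%) and the TATA box letters TATAAA (12.4%) were searched on both strands and were in none of these 4 windows. The pair with like levels differed in base composition, with 52.4% G or C and 5 CG pairs before Tcf21 against 65.2% and 19 before Lmx1b. The Foxc1 window had 70.8% and 29 CG pairs, and the medians over all promoters were 52.4% and 6.

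Cells were clustered without the 6 genes and the clusters were named from marker genes, so a "-like" name rests on those markers alone. Podocyte-like cells numbered 2648 and 2152, podocyte-parietal intermediate cells 116 and 89, parietal epithelial-like cells 81 and 58, mesangial-like cells 212 and 161 and glomerular endothelial-like cells 124 and 101. All 11 podocyte markers given here stood at 50 CPM or more in podocyte-like and in intermediate cells. In intermediate cells 5 of the 12 parietal markers also did, namely Cldn1, Pax8, Akap12, Lbh and Ncam1. Krt8 was at 0 there, and Krt18, Vcam1, Prom1, Cd24a, Cdh6 and Aldh1a2 were under 50 CPM. Of the same 12, 11 reached 50 CPM in parietal cells and 4 in mesangial-like cells. In a cluster of thick ascending limb-like tubule cells 6 did. A further 1484 and 1565 cells fell in 2 clusters that hold the podocyte markers but are led by haemoglobin genes. Those cells were left unnamed, and adding them to the podocyte-like cells moved no member level at 50 CPM or more by a factor outside 0.973 to 1.02.

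All 6 genes were high in podocyte-like cells, all 6 were at 15.8 CPM or less in glomerular endothelial-like cells, and they differed in parietal and mesangial cells. Among the 5 classes, Tcf21 and Lmx1b were nearly limited to podocyte-like and intermediate cells, Wt1 was also present in parietal and mesangial cells, Foxd1 in parietal but not mesangial cells, and Foxc1 in parietal and mesangial cells alike.

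**Figure D1:**
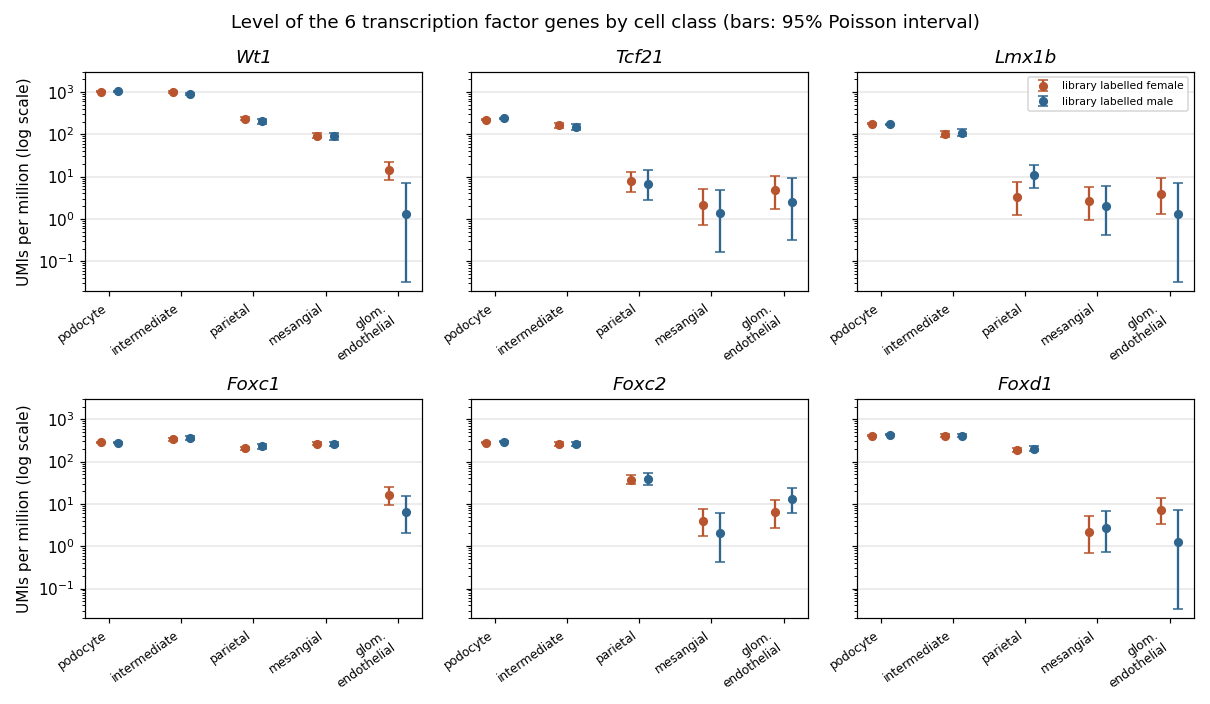
Level of each gene (CPM, log axis) in 5 cell classes, with 1 point per library and its 95% Poisson interval. Foxc1 stays between 205 and 362 CPM in 4 classes, whereas Tcf21 and Lmx1b fall below 11 CPM in parietal, mesangial and endothelial cells.

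Wt1 stood at 1027 [1017, 1038] and 1037 [1024, 1050] CPM in podocyte-like cells and at 998 [952, 1046] and 915 [860, 972] in intermediate cells. It was present in parietal epithelial-like cells at 236 [214, 259] and 203 [176, 232] CPM, and in mesangial-like cells at 92.7 [80.7, 106] and 89.7 [75, 106]. The fall from podocyte to parietal cells was 4.36-fold [3.96, 4.81] and 5.11-fold [4.46, 5.89], and from podocyte to mesangial cells 11.1-fold [9.69, 12.7] and 11.6-fold [9.75, 13.8]. The podocyte and intermediate intervals overlapped in the library labelled female and were apart in that labelled male, where the fold was 1.13 [1.07, 1.21]. The parietal and mesangial levels were apart from those above them and from each other. Glomerular endothelial-like cells held 18 Wt1 UMIs in the library labelled female (14.3 CPM) and 1 in the library labelled male (1.29 CPM). Of the 18, 8 came from 1 cell. Without the top 5% of cells by doublet score, the value labelled female was 8.32 CPM.

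Tcf21 stood at 224 [219, 229] and 242 [236, 249] CPM in podocyte-like cells, and at 163 [144, 183] and 151 [130, 175] in intermediate cells. Parietal epithelial-like cells had 7.80 [4.27, 13.1] and 6.79 [2.73, 14] CPM, which is 28.7-fold [17.1, 52.6] and 35.7-fold [17.3, 88.8] below podocyte-like cells. Mesangial-like cells held 5 and 2 UMIs of Tcf21, and glomerular endothelial-like cells 6 and 2. Lmx1b followed the same order, with 176 [172, 181] and 172 [166, 177] CPM in podocyte-like and 102 [87.6, 118] and 109 [91.2, 130] in intermediate cells. It stood at 3.34 [1.23, 7.28] and 10.7 [5.33, 19.1] CPM in parietal cells, from 6 and 11 UMIs, and at 2.60 and 2.04 CPM in mesangial cells. For both genes the podocyte level was apart from the intermediate level, and the intermediate level from every lower class, while the parietal, mesangial and endothelial levels overlapped. A filter of at least 1000 genes per cell raised Tcf21 in parietal cells to 20.5 and 18.5 CPM, a mitochondrial limit of 10% to 17.3 and 20.2 CPM. Leaving out non-podocyte cells with 3 or more Nphs1 UMIs lowered it to 3.27 and 0 CPM, and thinning each cell to 3000 UMIs to 4.12 and 0 CPM.

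Foxc1 was the member with the least difference between cell types. It stood at 286 [280, 292] and 279 [272, 286] CPM in podocyte-like cells, at 265 [245, 287] and 260 [235, 288] in mesangial-like cells and at 205 [184, 227] and 228 [200, 259] in parietal epithelial-like cells. Podocyte-like over mesangial-like cells gave 1.08-fold [0.99, 1.17] and 1.07-fold [0.97, 1.19]. Intermediate cells had the highest Foxc1 level, 333 [306, 361] and 362 [328, 399] CPM, and their interval was apart from that of podocyte-like cells. The smooth muscle and renin cells of the arterioles, with 42 and 68 cells too few for the comparisons, had 173 and 155 CPM. Glomerular endothelial-like cells had 15.8 and 6.45 CPM, from 20 and 5 UMIs.

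Its relative Foxc2 differed more between classes. Foxc2 stood at 278 [272, 283] and 293 [286, 300] CPM in podocyte-like cells, 263 [240, 288] and 261 [233, 293] CPM in intermediate cells, 37.3 [28.9, 47.4] and 39.8 [28.5, 54.0] in parietal cells and 3.90 and 2.04 in mesangial cells, the last from 9 and 3 UMIs. Thinning each cell to 3000 UMIs moved the parietal value in the library labelled female to 74.1 CPM, and a filter of at least 1000 genes moved it to 61.9. Podocyte-like over parietal cells gave 7.44-fold [5.85, 9.61] and 7.37-fold [5.43, 10.3]. Glomerular endothelial cells held 8 and 10 Foxc2 UMIs (6.34 and 12.9 CPM).

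Foxd1 stood at 409 [403, 416] and 431 [423, 440] CPM in podocyte-like cells and at 413 [383, 444] and 409 [373, 448] in intermediate cells, 2 levels that overlapped. Parietal epithelial-like cells had 184 [165, 205] and 201 [174, 230] CPM, 2.22-fold [1.99, 2.48] and 2.15-fold [1.87, 2.48] below podocyte-like cells, a difference close to the 2-fold line. In mesangial-like cells, which descend from Foxd1-marked stroma, 5 and 4 UMIs were counted (2.17 and 2.72 CPM), and podocyte-like cells were 189-fold [81.0, 582] and 159-fold [62.0, 583] higher.

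A gene was called different between classes when its CPM differed at least 2-fold in the same direction in both libraries, among genes at 20 CPM or more in either class. Against glomerular endothelial-like cells, 6 of 6 members were called higher in podocyte-like cells, where 13.0% of the 7597 genes measured were. Against mesangial-like cells 5 of 6 were, where 11.2% of 7438 genes were, and against parietal epithelial-like cells 5 of 6, where 8.69% of 7489 were, with Foxc1 the member not called in either. The call of Foxd1 against parietal cells was lost at the 3-fold rule (2.18-fold), with at least 1000 genes per cell (1.96-fold), at equal depth (1.99-fold) and, barely, with each cell's own CPM averaged. Against intermediate cells 0 of 6 were called higher, where 1.58% of 6722 genes were. No member was called lower in podocyte-like cells than in intermediate, parietal, mesangial or endothelial cells, where 6.62%, 17.9%, 19.3% and 20.6% of genes were. All 6 members passed the 20 CPM filter against endothelial cells only through podocyte-like cells, where they are high. So did Tcf21, Lmx1b, Foxc2 and Foxd1 against mesangial cells, and Tcf21 and Lmx1b against parietal cells. Since the members are also known podocyte genes, these counts describe where each is found and are no evidence that the set is special.

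The same classes appeared in the share of cells with at least 1 UMI after each cell was thinned to 3000 UMIs, which no kept cell fell short of. Wt1 was detected in 93.2% [92.1, 94.1] and 94.2% [93.2, 95.2] of podocyte-like cells, 48.1% and 39.7% of parietal, 24.1% and 23.0% of mesangial and 4.84% and 0.99% of glomerular endothelial cells. At full depth the first and last of these shares were 99.9% and 99.9%, and 8.06% and 0.99%, with median depths of 11126.5 and 9958 UMIs in podocyte-like and 7932 and 6417 in endothelial cells. Foxc1 was detected in 55.7% and 55.4% of thinned podocyte-like cells and 48.6% and 47.2% of mesangial cells, against 3.23% and 1.98% of endothelial cells. Tcf21 was detected in 46.8% and 48.5% of podocyte-like cells and in 0 of 212 and 1 of 161 mesangial cells, where the upper interval bounds were 1.72% and 3.41%. Foxd1 was detected in 67.4% and 69.6% of podocyte-like, 49.4% and 37.9% of parietal and 0% and 0.62% of mesangial cells.

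Podocyte transcripts can enter other droplets as free RNA or with a second cell, so member UMIs were set against those of Nphs1, which encodes nephrin of the slit diaphragm. Nphs1 stood at 1483 and 1427 CPM in podocyte-like cells and at 58.0 and 43.7 in parietal, 11.3 and 6.11 in mesangial and 18.2 and 12.9 in glomerular endothelial cells. These 3 classes, in that order, held 104 and 45, 26 and 9, and 23 and 10 Nphs1 UMIs, so the ratios rest on few reference counts. At the podocyte ratio of Wt1 to Nphs1, parietal cells would hold 72.0 and 32.7 Wt1 UMIs, and they held 423 and 209. Mesangial cells held 214 and 132, which was 11.9 and 20.2 times the number at the podocyte ratio. For Foxc1 the observed number was 122 and 218 times the podocyte ratio in mesangial cells and 18.3 and 26.7 times in parietal cells, and for Foxd1 it was 11.5 and 15.2 times in parietal cells.
In mesangial cells Tcf21 stood at 1.27 and 1.31 times and Lmx1b at 1.94 and 2.77 times the podocyte ratio. Foxc2 stood there at 1.85 and 1.62 times and Foxd1 at 0.70 and 1.47 times, each of these genes on 9 UMIs or fewer. In parietal cells Tcf21 stood at 0.89 and 0.92 times and Foxc2 at 3.44 and 4.43 times. Lmx1b in parietal cells was at 0.49 and 2.03 times, from 6 and 11 UMIs. In the glomerular endothelium, Wt1 stood at 1.13 and 0.14 times, Foxc1 at 4.51 and 2.56 times and Foxc2 at 1.86 and 4.87 times, all on 20 UMIs or fewer.

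**Figure D2:**
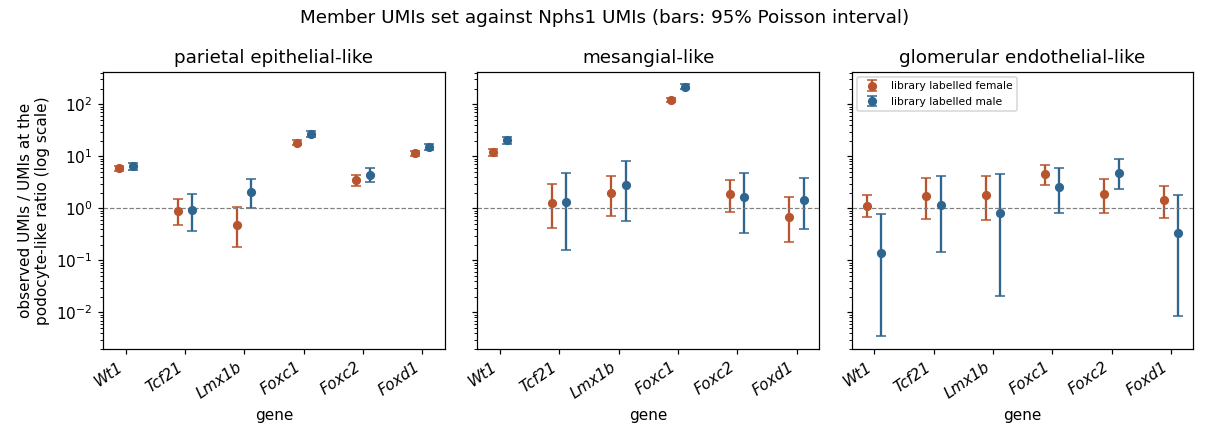
Observed UMIs of each gene divided by the number its class would hold at the podocyte-like ratio to Nphs1 (log axis), with 1 point per library and the 95% Poisson interval of the gene's own UMIs, which leaves out the counting error of Nphs1. In mesangial cells Foxc1 and Wt1 lie far above the dashed line at 1, with Foxc1 at 122 and 218, and the other 4 genes lie between 0.70 and 2.77.

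Mesangial-like cells with no UMI of Nphs1 gave levels of Wt1 and Foxc1 near those over all cells of their class. Among 196 and 152 such mesangial-like cells, Wt1 stood at 85.2 [72.7, 99.2] and 88.1 [73.1, 105] CPM and Foxc1 at 268 [245, 292] and 263 [237, 292] CPM. Such parietal cells numbered 53 and 43, the second under the minimum of 50 set for a class, so their values are given with that limit. There Wt1 stood at 189 [161, 220] and 180 [148, 217] CPM, against 236 and 203 over all parietal cells. Foxc1 stood at 163 [137, 192] and 223 [187, 263] CPM, against 205 and 228. Foxd1 stood at 203 and 208 CPM, against 184 and 201, and Foxc2 at 35.1 and 42.2 CPM, against 37.3 and 39.8. Cells of low depth are more likely to hold no Nphs1 UMI, and depth was not matched here. Tcf21 was left with 2 and 0 UMIs in those parietal cells and Lmx1b with 2 and 3. In the thick ascending limb-like cluster, tubule cells with 51 and 81 cells, Wt1 stood at 209 and 139 CPM, Tcf21 at 44.8 and 33.7 and Lmx1b at 27.1 and 24.2, the last 2 above their parietal levels, although the intervals of Lmx1b overlapped in the library labelled male. There all 11 podocyte markers given here stood at 50 CPM or more and summed to 4127 and 3763 CPM against 22108 and 24332 in podocyte-like cells. Against Nphs1 the 6 members stood at 0.72 to 1.26 and at 0.81 to 2.02 times the podocyte ratio in that cluster.

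The podocyte-parietal intermediate cells kept Foxc1, Foxd1, Wt1 and Foxc2 transcripts at a higher share of the podocyte level than most podocyte markers. Tcf21 and Lmx1b lay within the range of the markers. Podxl (podocalyxin) stood at 57.1% and 59.6% of its podocyte-like level there and Cdkn1c, a cell cycle inhibitor, at 33.9% and 28.3%. The median over 11 podocyte markers was 58.0% and 56.5%, with 10 of 11 under 70% in each library and Npnt (nephronectin) the exception at 97.0% and 101%. Over the 6 members the median was 96.0% and 88.7%. Foxd1 stood at 101% and 94.8%, Wt1 at 97.2% and 88.2%, Foxc2 at 94.7% and 89.2% and Foxc1 at 116% and 130%. Tcf21 stood at 72.6% and 62.3% and Lmx1b at 57.9% and 63.8%, so that Lmx1b in both libraries and Tcf21 in the library labelled male were also under 70%. The markers named these cells and were used for clustering, so this is a description of the cluster and no test. Median depth was 12070 and 10403 UMIs in intermediate cells against 11126.5 and 9958 in podocyte-like cells, and their median doublet scores were 0.0456 and 0.0470 against 0.0531 and 0.0735. The doublet caller called too few cells to have worked, so these scores do not tell whether the intermediate cells are mixed. With coarser clustering (resolution 0.5) the parietal cells merged into this cluster, and Wt1 there fell to 608 and 578 CPM.

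**Figure D3:**
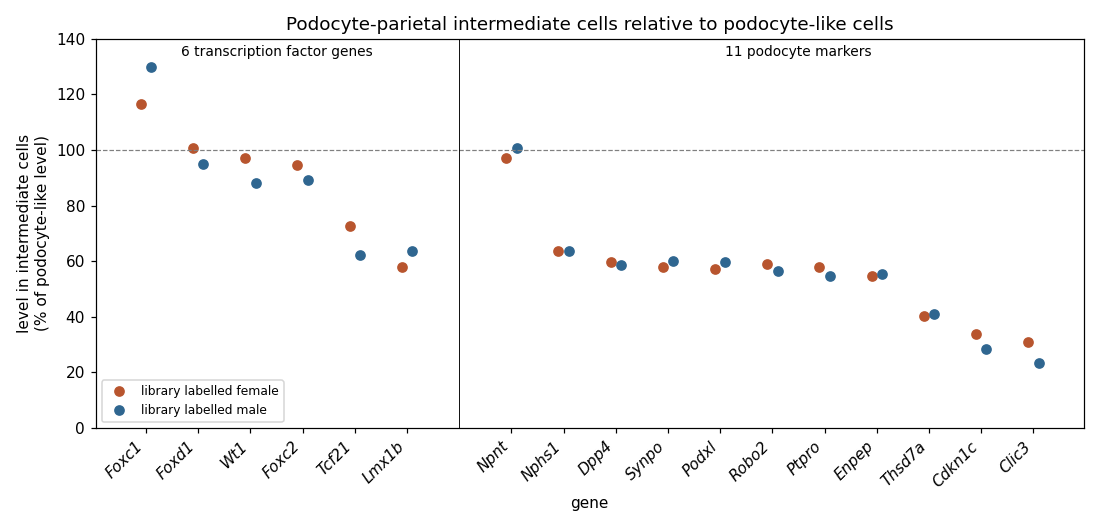
Level in podocyte-parietal intermediate cells as a percent of the podocyte-like level, 1 point per library, for the 6 transcription factor genes (left) and 11 podocyte markers (right). Foxc1, Foxd1, Wt1 and Foxc2 lie between 88.2% and 130%, and Tcf21 and Lmx1b lie between 57.9% and 72.6%, against 63.8% and 63.6% for Nphs1 and 57.1% and 59.6% for Podxl.

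Within the podocyte-like cells the members varied little. Across the 3 podocyte-like clusters and the 2 haemoglobin-led ones, the highest cluster exceeded the lowest by 1.06-fold (Foxd1, library labelled male) to 1.26-fold (Foxc2, library labelled male). Cluster 1, in which the early-response genes Fos, Jun and Atf3 summed to 23772 and 23129 CPM against 3824 and 3789 in cluster 0, had the lowest Tcf21 in both libraries, 206 and 217 CPM against 254 and 256 in cluster 0. It also had the lowest Wt1 (977 and 999 CPM) and Foxc2 (265 and 244 CPM), and the highest Lmx1b (185 and 183 CPM against 167 and 165 in cluster 0). Early-response transcripts can rise during tissue dissociation, and their part in these differences was not tested. Podocyte-like cells with a UMI of any Confetti reporter (728 and 638 cells) had Wt1 at 1027 and 1060 CPM, and those without one (1920 and 1514 cells) at 1028 and 1026. Their median depths were 12452.5 and 10800 UMIs with a reporter and 10695 and 9684 without. By reporter, 406 cells labelled female with hrGFPIINLS had 1061 [1036, 1088] CPM and 260 with MbmCerulean 977 [945, 1009]. In the library labelled male 594 cells had hrGFPIINLS (1060 CPM) and 1 had MbmCerulean.

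**Figure D4:**
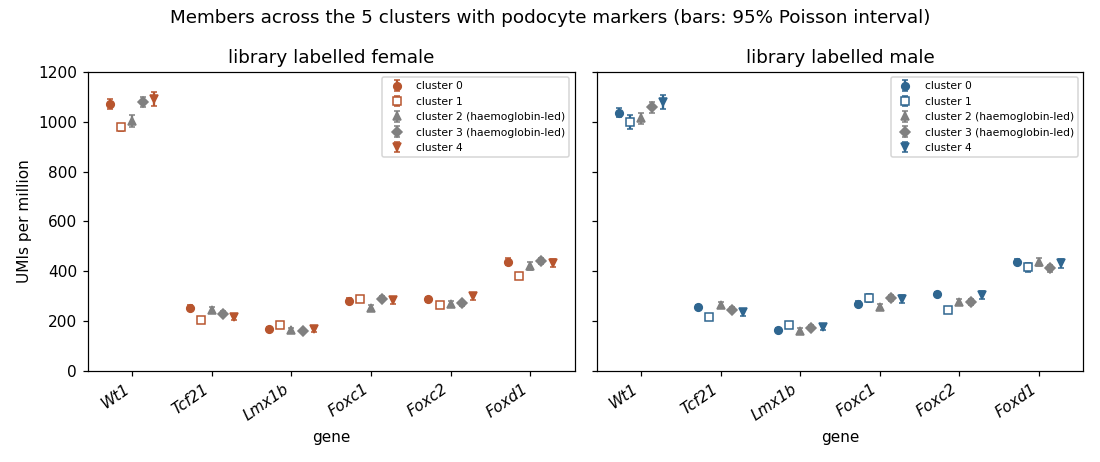
Level of each gene (CPM, linear axis from 0) in the 5 clusters that hold podocyte markers, with 95% Poisson intervals and 1 panel per library. The clusters lie close together for each gene, and cluster 1 (open squares) is lowest for Wt1, Tcf21 and Foxc2 and highest for Lmx1b.

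Co-detection was read after each podocyte-like cell was thinned to 5000 UMIs, which left out 0 and 27 shallower cells. A cell then held UMIs of 4.50 and 4.55 of the 6 genes on average, and 84.0% and 85.0% of cells held at least 4. No cell lacked all 6. All 6 were seen together in 16.6% [15.2, 18.1] and 17.9% [16.3, 19.6] of cells, and the product of the 6 single shares was 16.2% and 17.0%. At full depth the share with all 6 was 62.8% and 57.9%.
Tcf21 and Lmx1b were found together in 36.2% [34.3, 38.0] and 35.3% [33.3, 37.4] of cells, and the products of their shares were 36.2% and 36.2%. Foxc1 and Foxc2 were found together in 53.6% [51.7, 55.5] and 55.4% [53.2, 57.5], with products of 53.3% and 54.9%. Over the 15 pairs the share with both was 0.996 to 1.02 times the product in the library labelled female and 0.975 to 1.02 times in the library labelled male. The phi correlation, which is 0 for unlinked detection, ranged from -0.033 to 0.037 and from -0.038 to 0.063. Wt1 was found in 98.8% and 98.9% of cells, so the share with Wt1 and a partner is nearly set by the partner. The highest phi, 0.063 for Wt1 with Lmx1b in the library labelled male, rests on the few cells without Wt1, of which 25% held Lmx1b against 54.8% of the others, and in the library labelled female that pair had a phi of -0.033. These values describe the cells of 1 library each, and no test was made. Intermediate cells held 4.10 and 4.02 members on average, parietal cells 2.25 and 2.21, mesangial cells 1.11 and 1.06 and glomerular endothelial cells 0.16 and 0.11.

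**Figure D5:**
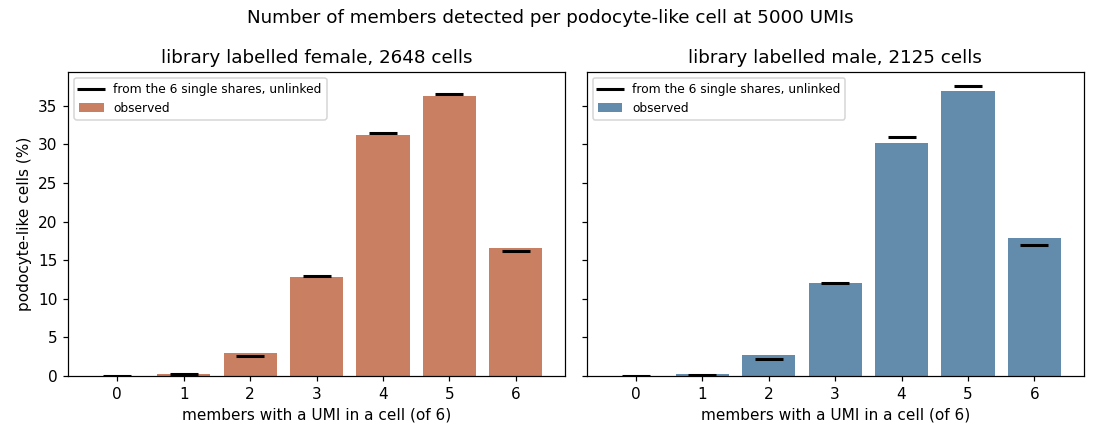
Share of podocyte-like cells (percent) by the number of the 6 genes with a UMI at 5000 UMIs per cell, 1 panel per library. Bars are the observed shares and black marks the shares that the 6 single detection rates give when unlinked; the marks follow the bars, with 16.6% and 17.9% of cells at 6 against 16.2% and 17.0%.

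In thinned mesangial-like cells Wt1 and Foxc1 were found together in 24.5% [18.9, 30.9] and 22.8% [16.3, 30.4], and the products were 25% and 22.3%. In parietal cells, of which 81 and 57 were deep enough, Wt1 and Foxd1 were found together in 40.7% [29.9, 52.2] and 40.4% [27.6, 54.2], with products of 41.5% and 37.7%. Foxc2 and Foxd1 were found together there in 25.9% [16.8, 36.9] and 22.8% [12.7, 35.8] of cells, 1.51 and 1.21 times the products of 17.2% and 18.8%. Of parietal cells with Foxc2, 87.5% and 76.5% held Foxd1, against 45.6% and 57.5% of those without (phi 0.39 and 0.18). Foxc1 and Foxd1 had a phi of 0.051 and 0.20. Both pairs were named after their values were seen, and the parietal cells are few.

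Between the libraries the members lay close together in podocyte-like cells. None of the 6 was 1.5-fold apart, and neither were most genes, with 2.04% of the 6176 measured past that rule. Tcf21 had the widest ratio, 0.92-fold [0.89, 0.96] (labelled female over labelled male), followed by Foxd1 at 0.95-fold [0.93, 0.97] and Foxc2 at 0.95-fold [0.92, 0.98]. These intervals leave out 1, but they hold no spread between animals. Cluster 1, high in early-response genes, held 1235 of the podocyte-like cells labelled female and 460 of those labelled male. Tcf21 stood at 254 and 256 CPM in cluster 0, 206 and 217 in cluster 1 and 216 and 235 in cluster 4. In the same clusters Foxd1 stood at 439 and 438, 382 and 415, and 433 and 431 CPM. Foxc2 stood at 287 and 309, 265 and 244, and 299 and 305 CPM. The part of the cluster mix in these ratios was not tested. Wt1 was at 0.99-fold [0.97, 1.01], Lmx1b at 1.03-fold [0.99, 1.07] and Foxc1 at 1.03-fold [0.99, 1.06]. In arterial endothelial-like cells Wt1 stood at 11.8 and 43.5 CPM and Foxd1 at 2.94 and 22.6 CPM, and there Nphs1 stood at 16.2 and 62.6 CPM, whose part in that difference was not tested.

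Among 8 other transcription regulators of podocytes, 6 were measured in each comparison. Klf6, a zinc finger factor, stood at 913 and 645 CPM in podocyte-like, 715 and 633 in parietal, 439 and 447 in mesangial and 209 and 258 in glomerular endothelial cells. Tead1, a DNA-binding partner of YAP and TAZ, stood at 207 and 234 CPM in podocyte-like and 26.9 and 27.1 in glomerular endothelial cells, and Wwtr1, which encodes TAZ, at 144 and 133 CPM against 273 and 268. None of the 6 was called higher in podocyte-like cells against intermediate, parietal or mesangial cells, where 1.58%, 8.69% and 11.2% of all genes were. Against glomerular endothelial cells 2 of 6, Tead1 and Klf6, were called higher, where 13.0% of all genes were. Zhx3, a zinc finger and homeobox factor, was called lower in podocyte-like cells (11.2 and 10.5 CPM) than in each of the 4 other classes. It passed the 20 CPM filter only through those classes.
Of 41 other forkhead genes, 11 had no UMI in any class and 15 reached 20 CPM in at least 1 of the 5 classes described above. Foxd2 stood at 151 and 142 CPM in podocyte-like and 122 and 104 in intermediate cells, against 16.2 and 18.4 in parietal and 20.8 and 15.6 in mesangial cells. The smooth muscle and renin cells, too few for the comparisons, had 68.7 and 31.3 CPM. Foxp1, at 183 and 161 CPM, and Foxn3, at 141 and 136 CPM, were called in no comparison. Foxl1, which lies beside Foxc2 on chromosome 8, was called lower in podocyte-like than in intermediate cells, where 6.62% of all genes were. It stood at 17.5 and 20.1 CPM in podocyte-like and 54.5 and 47.8 CPM in intermediate cells. The 20 CPM filter was passed only through intermediate cells. In parietal, mesangial and glomerular endothelial cells Foxl1 stood at 2.91 CPM or less. Foxj1, a factor of ciliated cells, was higher in parietal cells, at 63.0 and 35.9 CPM against 2.22 and 1.78 in podocyte-like cells. It passed the filter only through parietal cells.

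Of 8 partners and cofactors of the members, 6 were measured against intermediate and parietal cells, 8 against mesangial and 7 against glomerular endothelial cells. Called higher in podocyte-like cells were 0 against each of the first 3 classes, where 1.58%, 8.69% and 11.2% of all genes were, and 1, Pawr, against endothelial cells, where 13.0% were. Pawr, Tcf4 and Tcf12 were called lower than in mesangial cells, where 19.3% of all genes were. Ldb2 and Basp1 were too, but they passed the 20 CPM filter only through mesangial cells, Ldb2 with 0.325 and 0 CPM in podocyte-like cells. Pawr, which binds Wt1, stood at 92.0 and 90.1 CPM in podocyte-like, 200.5 and 209 in mesangial and 9.50 and 1.29 in glomerular endothelial cells. Against endothelial cells it passed the 20 CPM filter only through podocyte-like cells. Basp1, a corepressor of Wt1, had 0.148 and 0.0415 CPM in podocyte-like cells against 119 and 72.0 in mesangial cells, and was measured only through the latter. Tcf12, which encodes an E protein of the kind that pairs with Tcf21, stood at 59.7 and 59.0 CPM in podocyte-like and 122 and 144 in parietal cells.

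Genes reported as targets of Wt1 or Lmx1b in podocytes were higher there than in the other lineages. Of 8, 7 were measured. All 7 were called higher than in parietal, mesangial and endothelial cells, where 8.69%, 11.2% and 13.0% of all genes were. Their median log2 differences were 2.96, 5.19 and 4.11 against -0.09, -0.07 and -0.06 over all genes measured. In each of these comparisons Sulf1 passed the 20 CPM filter only through podocyte-like cells, as did Magi2 against endothelial cells. The list was chosen as podocyte genes, so these counts describe where its genes are found and are no test. Col4a3 and Col4a4, chains of the glomerular basement membrane collagen, stood at 2359 and 2337 and at 2538 and 2270 CPM in podocyte-like cells and at 2149 and 2371 and at 2278 and 2345 in intermediate cells. Vegfa, the endothelial growth factor, was the 1 of 7 called higher in podocyte-like than in intermediate cells (1597 and 1577 against 574 and 636 CPM), where 1.58% of all genes were.
Factors of the other lineages passed the 20 CPM filter mostly through the class where they are high, so no count over those lists is given. Among those with the highest podocyte-like level, the stromal factor Zeb2 stood at 220 and 195 CPM in podocyte-like against 717 and 758 in mesangial cells, Nr2f2 at 143 and 154 against 576 and 591, and Ets1, a factor of endothelial cells, at 66.8 and 70.6 against 479 and 543 in glomerular endothelial cells. Sall1, a factor of nephron progenitors, stood at 18.9 and 17.7 CPM in podocyte-like and 39.6 and 39.8 in parietal cells. Pax8 and Gata3 were among the markers that named the parietal and mesangial clusters, so their levels there restate the naming.

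The genes whose levels ran most like each member were ranked by Pearson's r of log2(CPM + 10) over 14 points, 7 classes in 2 libraries, among 9258 genes. The points share the clusters and the libraries, so r is a description. Tcf21 was most like Tmem150c (r 0.995) and Rab3b (0.994), with Lmx1b next (0.992), and Lmx1b was most like Sgip1 (0.992), Tcf21 (0.992) and Sema3e (0.989). Foxc1 was most like Npr3, a natriuretic peptide receptor (0.987), Tead1 (0.979) and Igfbp7 (0.975), and Npr3 stood at mean levels of 619, 461 and 391 CPM in podocyte-like, parietal and mesangial cells. Wt1 was most like Selenos, Plod2 and Eml2 (0.985 to 0.978), Foxc2 like Chrnb1, Zfp385b and Fndc5 (0.984 to 0.977) and Foxd1 like Aplp1, Itgb8 and Ildr2 (0.991 to 0.990). Among the members, the lowest r was 0.526 between Tcf21 and Foxc1, and Foxc1 with Foxc2 gave 0.547. Ranking by Spearman's rho kept 0 of the 3 genes named for Lmx1b, Foxc1 and Foxc2, 1 of 3 for Tcf21 and Foxd1 and 2 of 3 for Wt1, so the named genes depend on the measure.

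Neighbouring genes were read because 3' counting can assign reads to overlapping models. Wt1os, an antisense RNA gene whose model is separated from Wt1 by 18 bases and lies on the other strand, stood at 101 and 106 CPM in podocyte-like, 87.7 and 99.9 in intermediate, 12.3 and 14.6 in parietal, 14.3 and 12.9 in mesangial and 2.38 and 0 in glomerular endothelial cells. Unlike Wt1, it did not differ between parietal and mesangial cells in the same direction in both libraries. Strand use in the counting is not given in these sources. Gm10824, which overlaps Tcf21, had 73 and 65 UMIs in podocyte-like cells, and Gm20388, which overlaps Foxc2, had 0 in all 5 classes.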

How the data were processed

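Transcripts were counted in 2 single-cell libraries of mouse glomerular cells. The deposited values are UMI counts per gene and barcode, whole numbers and not normalized, made by the authors; Cell Ranger 6.1.2, STAR 2.7.5a and mm10 are named in the submitters' processing notes. Cell calling, annotation and strand are not given in these sources. Barcodes over 20% mitochondrial UMIs (283 and 504) or under 500 genes (112 and 145) were left out. Cells were scaled to 10000 UMIs and log transformed, and the 2000 most variable genes were centred, reduced to 30 components and clustered by the Leiden method (20 neighbours, resolution 1.0; scanpy 1.11.5, leidenalg 0.10.2, Python 3.11.15), without the 6 members, none of which was among the variable genes when allowed. This gave 18 clusters. A first clustering with genes scaled to unit variance had been seen, with its member levels, before centring alone was chosen, and both are reported.

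A marker counted for a cluster at over 20% of cells, 50 CPM or more and over 2 times the lower quartile of clusters, and 3 markers were needed; the intermediate cluster needed 3 of both podocyte and parietal types, with at least 2 of Cst12, Igfbp6 and Dkk3 among its top genes. Clusters whose top 10 genes by fold held more markers of another type were left without a name. These naming criteria were chosen with the clusters in view. The members, gene lists and markers were chosen with earlier results of these data known. Scrublet called 5 of 9351 cells, too few to have worked, so no doublet was removed. Classes needed 50 cells in each library.

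Counts were summed per class and library. Intervals are exact: Poisson for CPM, Clopper-Pearson for shares and conditional binomial for folds. UMIs of a library are not replicates, and no p-value is given. Named genes are the 6 members, the 3 genes most like each, and per list the 3 highest in podocyte-like cells plus called ones, up to 6. The calling, interval, thinning and pair code was tested on simulated data. Alternatives covered clustering, cell filters, doublet scores, the CPM denominator, depth, fold rules and low-count filters. Results that need 2 genes of the lists, alternatives included, are not reported here; Nphs1 as the reference for podocyte transcripts, and the filters on its UMIs, were chosen after seeing the data.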

Additional observations from a re-analysis of the deposited data

How the results depend on the processing

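With 1 library per title, no library could be left out. No paired analysis was possible because each title has 1 library and no test was made. Of 4 counts of members called higher in podocyte-like cells, those against parietal, mesangial and glomerular endothelial cells stayed within 1.5 times under every alternative that gave a value. Against intermediate cells the count went from 0 to 2 at resolution 0.5 (Tcf21 and Lmx1b, with 4.26% of genes called), where parietal cells join that cluster and no parietal class is left, and to 1 under the 1.5-fold rule (Lmx1b, with 4.30% of genes called). No member was 1.5-fold apart between the libraries in podocyte-like cells under any alternative, nor within any podocyte-like cluster. The share of podocyte-like cells with all 6 members moved with depth and threshold: 62.8% and 57.9% with no thinning (products 59.7% and 54.8%), 4.12% and 4.69% thinned to 3000 UMIs (products 3.63% and 4.17%), 27.9% and 23.2% with at least 2 UMIs and no thinning (products 20.5% and 16.2%), and 19.7% in the largest podocyte-like cluster for the library labelled female. With at least 2 UMIs and no thinning, where cells differ in depth, the highest phi of a pair was 0.16 and 0.12. Scaling genes to unit variance, the clustering seen first, left 75 and 49 parietal cells, under the minimum, so it gave no parietal value. It moved Foxc1 in glomerular endothelial cells of the library labelled female from 15.8 to 63.1 CPM, Wt1 there from 14.3 to 27.0, Foxd1 in mesangial cells from 2.17 to 9.57, and the other levels it moved by over 1.5 times were under 5 CPM. Leaving out non-podocyte cells with 3 or more Nphs1 UMIs, a choice made after seeing the data, left too few intermediate cells (20 and 15) for a value and moved Wt1 in glomerular endothelial cells of the library labelled female to 8.04 CPM and Foxc1 there to 10.5 CPM. Leaving out the mitochondrial, ribosomal protein and haemoglobin genes raised the levels at 50 CPM or more by 1.11 to 1.2 times. Levels under about 20 CPM rest on few UMIs and moved most. With each cell thinned to 3000 UMIs, the ratios between the libraries in parietal cells reversed for Foxc2 (0.94-fold to 1.61-fold) and Foxd1 (0.92-fold to 1.60-fold). Of 416 library ratios under the alternatives 37 lay on the other side of 1, with 2 of the 90 in podocyte-like cells (Wt1 and Lmx1b, both near 1). Of 395 folds between classes 2 did, both over intermediate cells: Foxc1 at resolution 0.5 and Foxd1 with at least 1000 genes per cell.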
